A study of Heliocidaris erythrogramma with 5 samples.

Results

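The Slc5 and Slc6 families are membrane carriers that pull a substrate into the cell together with sodium ions, using the sodium gradient that the sodium pump maintains. In mammals, Slc5 carriers take up sugars, myo-inositol, choline, iodide, vitamins and short organic acids such as lactate, and Slc6 carriers take up glycine, GABA, taurine, betaine and the monoamine transmitters. Several of them serve nerve endings, where they clear a transmitter or supply its precursor, and others feed epithelia and blood-type cells, so that the cells that hold each carrier are of interest in a larva that is building a nervous system, a skeleton and an adult body at once. The features described here are all those whose name in the deposited gene tables starts with Sp-Slc5a or Sp-Slc6a, with case ignored and copies kept, which gave 110 of 38707 features under 44 symbols. Of these, 82 were Slc5 and 28 were Slc6 features. The names come from a purple sea urchin annotation (the prefix Sp-, left out hereafter), and the substrates given below are those of the mammalian carriers of that name, as background.

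The study dissociated entire larvae of *Heliocidaris erythrogramma*, a sea urchin whose larva does not feed and makes its juvenile rudiment early, and sequenced single cells of 5 ages, 36, 42, 48, 56 and 60 hours post-fertilization (hpf). All were untreated larvae raised at 1 temperature and differed only in age, with 1 library per age, so that cells of one library share their larvae and no difference between ages could be tested. The labels state neither the number of larvae per library nor parentage, and the library labelled 56 hpf is given an age of 54 hpf in the study's methods. The label was kept. Larvae were taken apart in a glycine and EDTA buffer, and the cells were fixed in methanol before capture.

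After the study's cell filter the libraries held 4080 to 8972 cells and 4193645 to 12136079 unique molecular identifiers (UMIs, 1 for each captured RNA molecule), with a median of 814 UMIs per cell at 56 hpf and 1634.5 at 42 hpf at the extremes. The 56 hpf library was the shallowest and held 509 of the 520 kept cells with under 500 UMIs. Pairs of libraries shared 4 to 12 cell barcodes. All intervals below are 95% intervals that cover counting error only, and they say nothing of the spread between larvae.

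Of the 110 members, 22 had no UMI in any library (20%, beside 35.1% of all features), 44 had 1 to 49 UMIs and 44 had at least 50. The members at 0 included all 7 whose identifier carries an extra code, and 25 symbols were shared by several features. The IDs of several copies run on from one another (HER_17998.t1 to HER_18001.t1 carry Slc5a7_4 and 3 copies of Slc5a12_2), and where copies are near-identical the reads could have been split among them, so that values of single copies are uncertain to that extent. In all, the members took 41353 UMIs. Slc6a9, Slc6a5_1 and Slc5a7_1 together held 26192 of these (63.3%), and 7 members had at least 1000.

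The names differed in how many copies reached 50 UMIs, and these counts carry the uncertainty over near-identical copies given above. Of 20 Slc5a12 features, named for a lactate carrier, 11 had at least 50 UMIs, and of 20 Slc5a9 features, named for a mannose and glucose carrier, 10 did. By contrast, 2 of 18 Slc5a8 features, named for a second short-chain acid carrier, reached that number, and 3 of 11 Slc5a7 features, named for the high-affinity choline carrier. Among the Slc6 features, Slc6a9 had 1 copy, 2 of 4 Slc6a5 features (glycine carriers) reached 50 UMIs, as did 2 of 6 Slc6a2 features (noradrenaline), 2 of 4 Slc6a13 features (GABA), and 2 of 4 Slc6a6 features (taurine). None of the 3 Slc6a12 features (betaine) and neither of the 2 Slc6a3 features (dopamine) did.

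The first question was how the members changed with age. Levels are UMIs summed over the cells of a library and divided by its size factor (normalized UMIs), and a member was called when its log2 ratio, with 1 added to each level, reached 2-fold. A total over all cells cannot tell more cells of a type from more RNA per cell. The filter of a mean of 10 normalized UMIs left 42 members. From 36 to 60 hpf, 7 of the 42 were at least 2-fold higher (16.7%, beside 10.2% of 14061 features), and 2 were at least 2-fold lower (4.76%, beside 12.0%). The median log2 ratio was 0.35 over the members and -0.01 over all features. In value, 27 members were higher and 15 lower, the interval of the ratio lying above 1 for 17 (beside 29.0% of all features) and below 1 for 5 (beside 30.0%). Among other carriers tested the same way, 23 of 73 Slc16a features (monocarboxylates) were at least 2-fold higher and 4 lower, and of 296 features with any further Slc name 43 were higher and 20 lower. Of 18 Slc7a features (amino acids), 2 were higher and 2 lower.

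**Figure D1:**
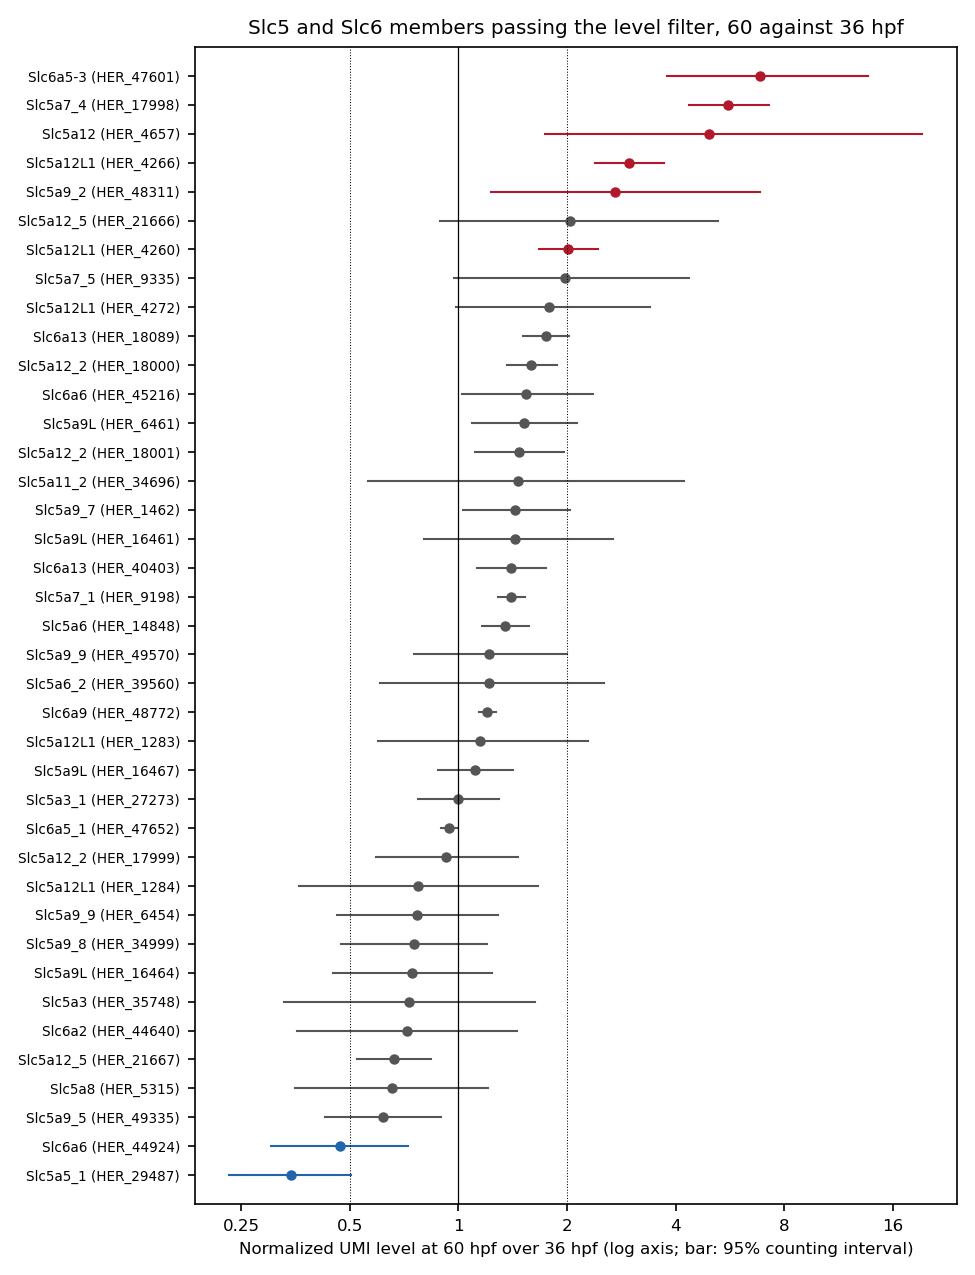
Ratio of the level at 60 hpf to that at 36 hpf for 39 of the 42 members that passed the filter (log axis), with its 95% counting interval. Slc6a5-3 and Slc5a7_4 lie farthest to the right, at 6.86 and 5.58, and Slc5a5_1 farthest to the left, at 0.34.

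Of the 7 risers, 6 are described here. Slc5a7_4 (HER_17998.t1), under the name of the choline carrier that supplies acetylcholine synthesis, had 62.5 normalized UMIs at 36 hpf, 57.4 at 42, 102 at 48, 144 at 56 and 349 at 60 hpf. The level was much the same in the first 2 libraries and highest in the last, with a ratio of 5.58 (4.34 to 7.28). Slc6a5-3 (HER_47601.t1), named for the neuronal glycine carrier, had 10.9, 35.8, 41.7, 104 and 74.6 normalized UMIs in order of age, a ratio of 6.86 (3.79 to 13.6) with the highest level at 56 hpf. The other 4 risers were 3 Slc5a12-type copies and 1 Slc5a9 copy. Slc5a12L1 HER_4260.t1 had 140, 172, 229, 246 and 281 normalized UMIs (ratio 2.01, 1.67 to 2.43). The copy Slc5a12L1 HER_4266.t1 had 94.3, 139, 198, 180 and 280 (ratio 2.97, 2.40 to 3.71). The first of these was higher in each library than in the one before, and the second was not at 56 hpf. Slc5a12 (HER_4657.t1_HER_4659.t1) had 3.63 at 36 hpf and 17.9 at 60 hpf, and Slc5a9_2 (HER_48311.t1) had 7.25 and 19.7, both from few UMIs.

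The 2 members that fell were an iodide and a taurine carrier. Slc5a5_1 (HER_29487.t1), which in mammals concentrates iodide in the thyroid, had 75.2, 41.4, 40.4, 50.7 and 25.9 normalized UMIs, a ratio of 0.34 (0.23 to 0.50). Slc6a6 (HER_44924.t1), named for the taurine carrier, had 49.9, 33.9, 24.8, 54.9 and 23.4, a ratio of 0.47 (0.30 to 0.72). Its level was below that at 36 hpf in each later library except that of 56 hpf, where it was above it at 54.9. The level of 24.8 in the library before that was close to the 23.4 at 60 hpf. Set at 56 against 36 hpf, no member was 2-fold lower.

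**Figure D2:**
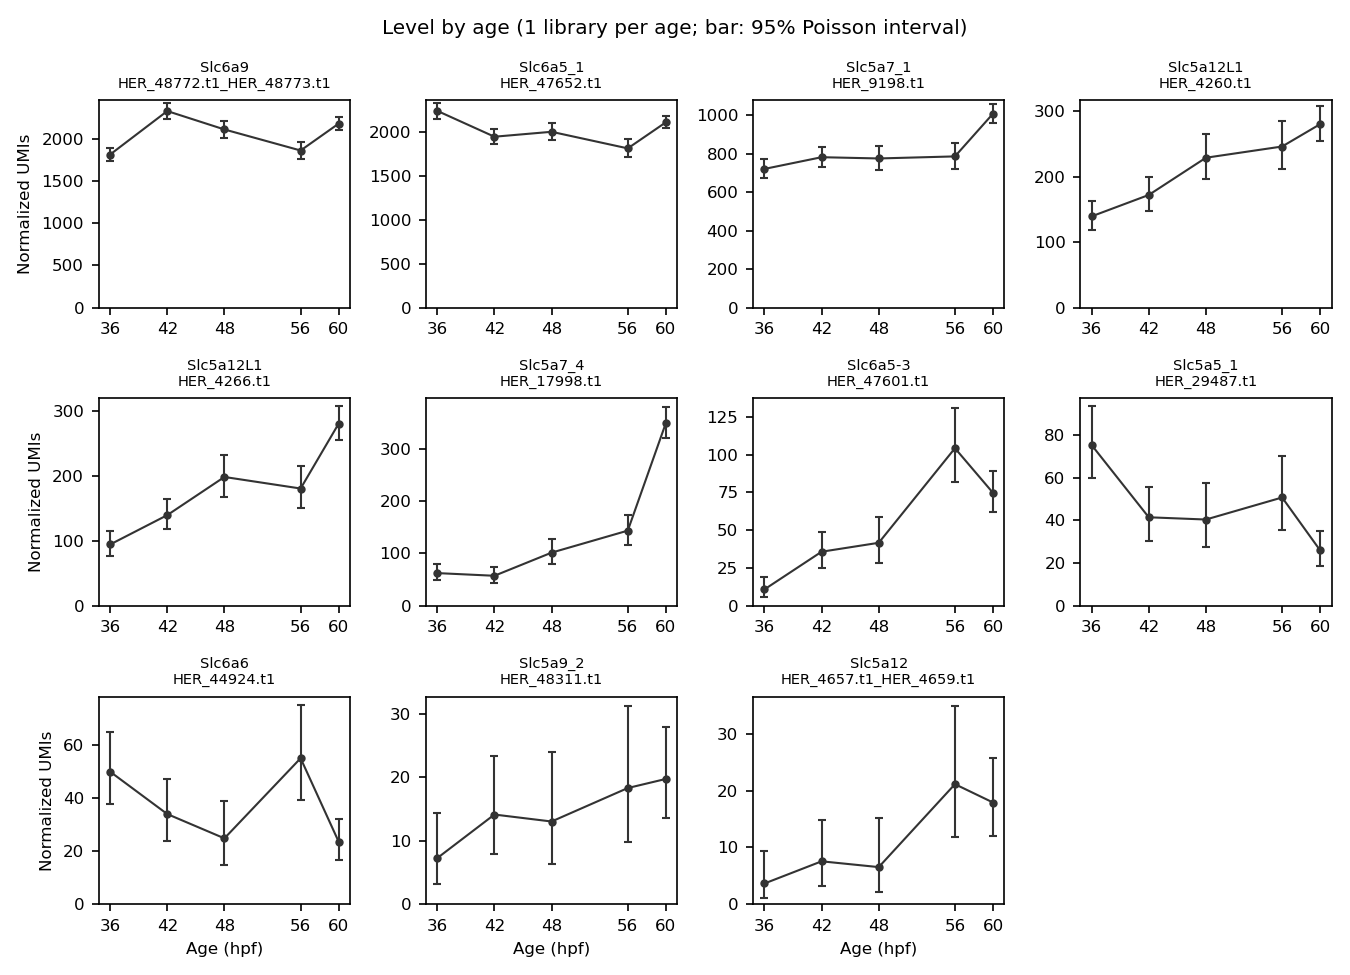
Normalized UMIs of 11 members in the 5 libraries by age in hpf, with 95% Poisson intervals and axes from 0: the 3 most counted members, 6 of those that rose and the 2 that fell. Slc5a7_4 rises mainly between 56 and 60 hpf, while Slc6a9 and Slc6a5_1 stay within 1817 to 2332 and 1818 to 2246.

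The members that were counted most often changed little. Slc6a9 (HER_48772.t1_HER_48773.t1), named for the glial-type glycine carrier, had 1817, 2332, 2114, 1864 and 2184 normalized UMIs, and Slc6a5_1 (HER_47652.t1), named for the neuronal glycine carrier, had 2246, 1951, 2007, 1818 and 2116. Their ratios were 1.20 (1.14 to 1.27) and 0.94 (0.89 to 0.99). Slc5a7_1 (HER_9198.t1), the other main choline-carrier copy, had 721, 782, 775, 786 and 1008, a ratio of 1.40 (1.28 to 1.52). Between these, Slc6a13 (HER_18089.t1), named for a GABA carrier, had 233, 196, 197, 253 and 408 (ratio 1.75, 1.51 to 2.03), and Slc5a12_2 (HER_18000.t1) had 203, 256, 323, 386 and 323 (ratio 1.59, 1.36 to 1.87). None of these reached 2-fold. The vitamin carrier name Slc5a6 (HER_14848.t1) had 237, 227, 234, 297 and 319.

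Single steps between ages moved 0 to 5 of the 42 members in each direction, several of them on few UMIs. From 36 to 42 hpf, 4 members were 2-fold higher (9.52%, beside 3.41% of all features) and 1 was lower (2.38%, beside 1.69%). The 4 were Slc6a5-3, Slc5a12_5 (HER_21666.t1, 68 UMIs in all), Slc5a9L (HER_6461.t1) and Slc5a11_2 (HER_34696.t1, 75 UMIs). Slc5a11_2, named for a myo-inositol carrier, had 6.35, 34.8, 6.51, 15.5 and 9.25 normalized UMIs. It was highest in the 42 hpf library and, from 48 to 56 hpf, among the members called higher. From 42 to 48 hpf, 4 were higher (9.52%, beside 4.16%) and 3 lower (7.14%, beside 4.89%). From 48 to 56 hpf, 5 were higher (11.9%, beside 4.11%) and 0 lower (beside 3.66%). From 56 to 60 hpf, only Slc5a7_4 was higher (2.38%, beside 3.31%), and Slc5a12_2 (HER_17999.t1) and Slc6a6 (HER_44924.t1) were lower (4.76%, beside 4.13%). Slc5a12L1 HER_4260.t1 and Slc5a7_5 (HER_9335.t1) were among 3 of 42 members that kept 1 direction at all 4 steps, both upward, beside 8.51% of all features. The share of members was thus no larger than that of all features. Slc5a7_5 had only 81 UMIs, and its levels at 56 and 60 hpf were nearly equal.

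Shares of cells with a UMI were compared after each cell was thinned to 500 UMIs, since depth differed between libraries. By this measure 8 of the 44 members with at least 50 UMIs were in a larger share of cells at 60 than at 36 hpf with intervals that did not overlap (beside 12.7% of 14248 features), and 1, Slc6a5_1, was in a smaller share, 12.3% against 14.2% (beside 14.8% of features). Slc5a7_4 was in 0.38% of thinned cells at 36 hpf and 2.24% at 60 hpf, and in 1.05% and 3.97% of cells as counted. Slc6a9 was in 10.0% and 11.7%.

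Genes that use or make the same transmitters were looked up from a list of 29 symbols. The list also held genes of the sodium pump and of creatine, inositol and sugar handling. Of the 29, 14 were matched by 18 features and 11 features passed the filter. From 36 to 60 hpf, 6 of the 11 were at least 2-fold higher (beside 10.2% of all features) and 0 lower (beside 12.0%). Vacht, which loads acetylcholine into vesicles, had 38.1 normalized UMIs at 36 hpf and 267 at 60 hpf (ratio 7.02, 5.10 to 9.88). Sert, a serotonin carrier that belongs to the Slc6 family but is not named so in the files and is thus no member, had 28.1 and 80.8. Th, the first enzyme of dopamine synthesis, had 22.7 and 75.3, Dbh, which makes noradrenaline from dopamine, had 2.72 and 22.2, and the vesicular monoamine carrier Slc18a2 had 20.8 and 57.4. Ckb, a creatine kinase and not a transmitter gene, was also among the 6, with 24209 and 53190. The GABA-degrading enzyme Abat (ratio 1.41), AchE, which breaks down acetylcholine (1.65), and the serotonin enzyme Tph (1.31) were higher but under 2-fold. Isyna1 and Impa1, which make myo-inositol, were near 0.91.

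The second question was which cells held each member. For each member with at least 50 UMIs, the level of 72 marker genes with a UMI, from 19 lists of cell classes, was compared between cells with at least 1 UMI of the member and all other cells of the same library. Levels are in CPM, the UMIs of a gene per 1000000 UMIs of the cells, with the member's own UMIs left out, and the mean log2 ratio over libraries was taken with 10 added to each level. A marker was called when that mean reached 1 and the marker was higher in every library used, with at least 3 libraries of 10 or more holding cells each. Some of the markers were picked by the study on these same libraries, so that their agreement within a list is not independent evidence of a cell class. At least 1 marker was called for 20 of the 44 members, 62 pairs in all. How many other features would have a marker called was not computed, so this count says nothing particular to these families. The shares of features given below are those called in the cells of 1 member or set. The same members were then measured the other way round, in cells that held at least 2 different markers of a list (called a marker set below), and 9 pairs of a member and a set were called by the same rule. The sets are not cell types, no clustering was done, and a cell can belong to several sets. No doublet caller was run and the share of free RNA was not estimated, so that a cell with 1 UMI of a member is called holding, not expressing.

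**Figure D3:**
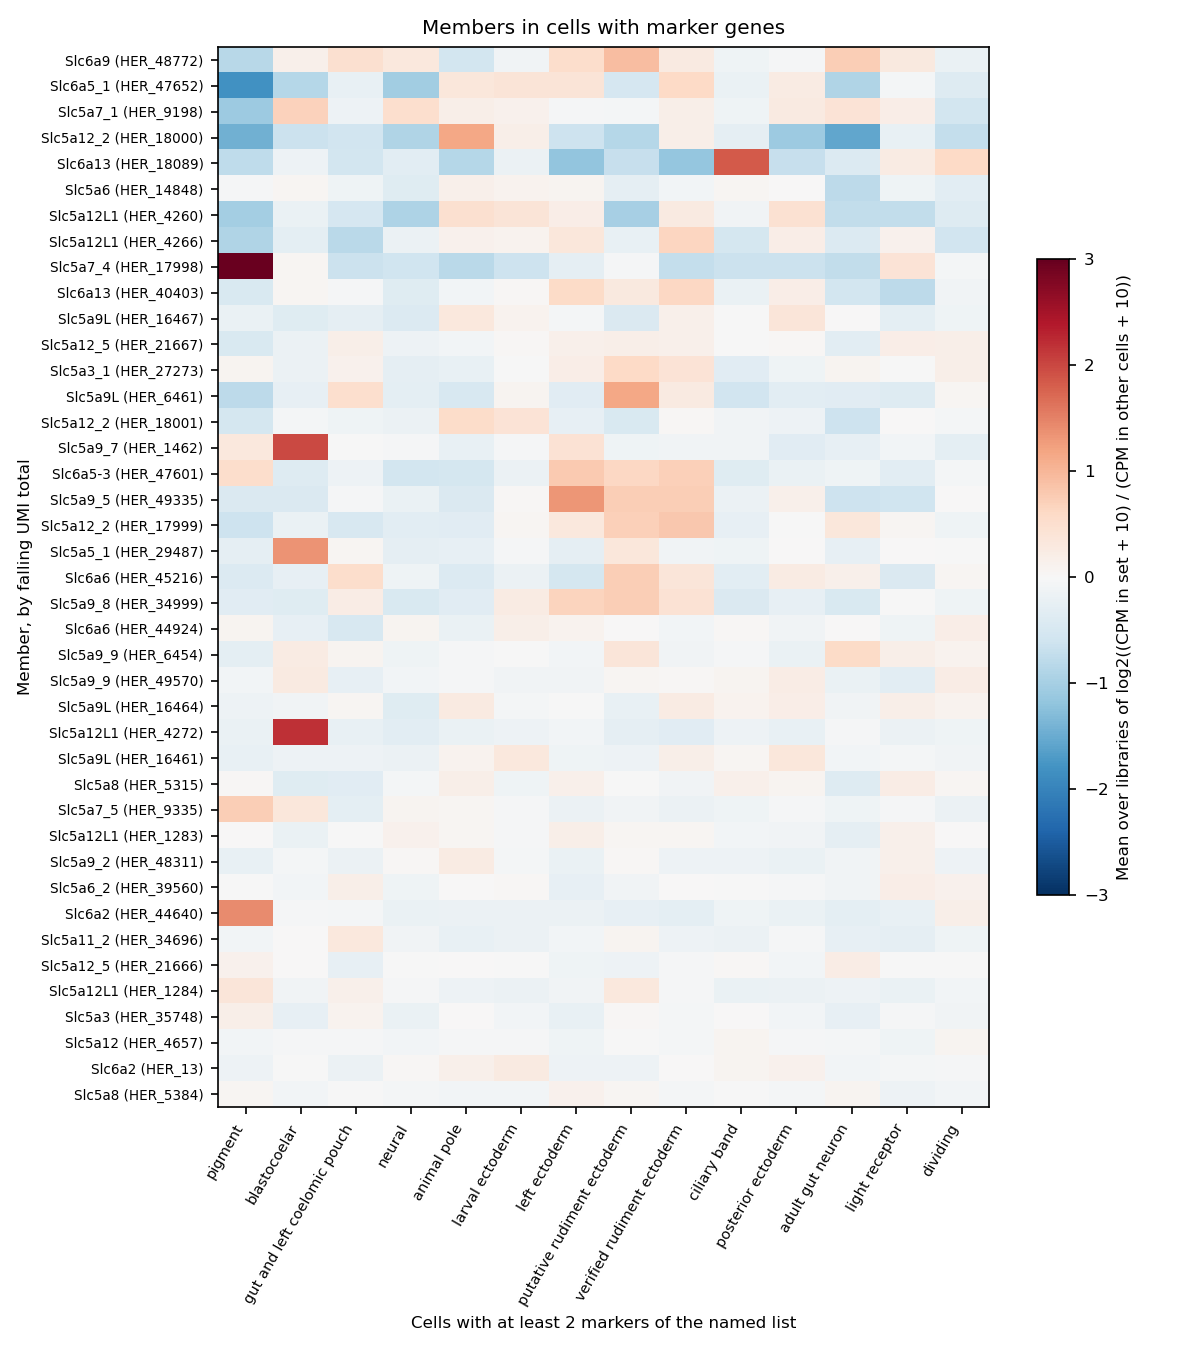
Mean over libraries of the log2 ratio of each member's level, with 10 added, in cells with at least 2 markers of a list (columns) against all other cells, for the 14 lists with 10 such cells in at least 3 libraries; rows are 41 of the members with at least 50 UMIs, in falling order of UMIs. Among these 14 the deepest red is Slc5a7_4 in the pigment set (2.97), followed by Slc5a12L1 HER_4272.t1 (2.20) and Slc5a9_7 (1.98) in the blastocoelar set, and Slc6a13 HER_18089.t1 in the ciliary band set (1.84).

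The choline-carrier copies differed in their cells. The 601 cells holding Slc5a7_4 had higher levels of the pigment markers hox11/13c (mean log2 2.82), mif4 (2.78) and pks1 (2.59), in 5 of 5 libraries each. Pks1 is the polyketide synthase that sea urchin pigment cells need for their red pigment. Pooled over libraries, mif4 was at 4289 CPM in these cells and 764 in the rest. The photoreceptor gene opsin2 (2.55) was called as well, among 5 of 72 markers in all, beside 2.0% of 14247 features. The named features with the most similar pattern were Eh2 (mean log2 3.03), Hypp_1597, Lrp6L_1, Cryz_1 and Gpr133L_2 (2.86). In the other direction, the pigment set of 1615 cells (6.04% of all) had 175 CPM of Slc5a7_4 and all other cells 12.0, a ratio of 14.6 (12.8 to 16.7), and it held 50.7% of the UMIs of the gene. After thinning, Slc5a7_4 was in 9.96% of the set and 0.57% of other cells, with median depths of 1259 and 1136 UMIs before thinning. Of all features, 3.83% were called in that set.

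Within the pigment set, the level of Slc5a7_4 was 85.3 CPM at 36 hpf, 94.0 at 42, 117 at 48, 207 at 56 and 252 at 60 hpf, from 47, 25, 43, 57 and 272 UMIs. The level in these cells was thus highest in the last library, while the share of the library's cells in the set was 6.62% at 36 hpf and 7.08% at 60 hpf. In cells that held opsin2 but not 2 pigment markers, the values were 12.6, 6.6, 59.5, 93.9 and 172, from 2 UMIs at 36 hpf and 186 at 60 hpf. Cells with neither had 2.75, 4.26, 5.01, 7.98 and 10.8. Both kinds of cells therefore had more Slc5a7_4 in the later libraries, and the cells with opsin2 went from 163 at 36 hpf to 978 at 60 hpf. Pooled over libraries, Slc5a7_4 was at 178 CPM in the opsin2-holding cells and 10.3 in other cells (ratio 17.3, 15.1 to 19.8).

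**Figure D4:**
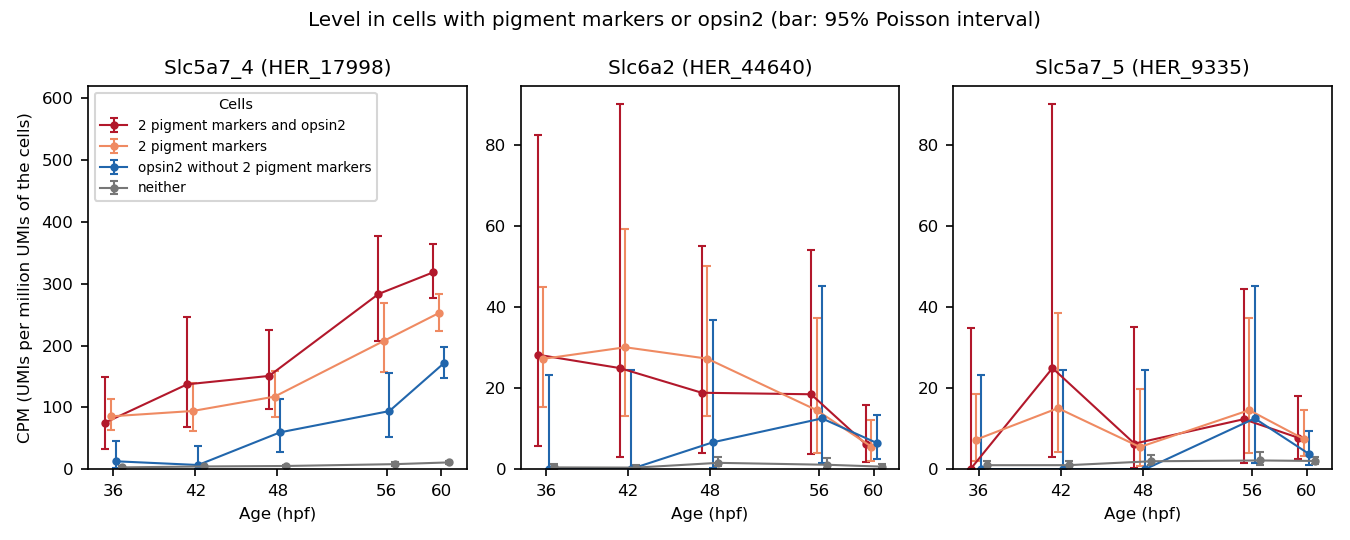
CPM of Slc5a7_4, Slc6a2 HER_44640.t1 and Slc5a7_5 by age in 4 groups of cells, with 95% Poisson intervals; cells with 2 pigment markers and opsin2 are also part of those with 2 pigment markers. Slc5a7_4 is higher at 60 than at 36 hpf in all 4 groups, at 318 in cells with pigment markers and opsin2. Slc6a2 is at 5.56 in the pigment set at 60 hpf after 27.2 at 36 hpf.

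Slc5a7_5 (HER_9335.t1), with 81 UMIs, had 9.97, 11.3, 15.6, 19.7 and 19.7 normalized UMIs and showed the same pigment markers, hox11/13c (2.18), mif4 (1.84) and pks1 (1.49), beside 0.590% of all features. Opsin2 was not called for it (0.59, higher in 4 of 5 libraries). Its similar genes included Lrp6L_1 and Cryz_1, which were also on the list for Slc5a7_4.

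Slc5a7_1 had no called marker. The 3560 cells that held it had more th (mean log2 0.96) and otp (0.94, a homeobox gene of neurons), in 5 of 5 libraries, and less mif4 (-1.78, in 5 of 5). Its level was then taken in cells holding a transmitter gene, a comparison added after the marker profiles had been seen. In 35 cells with a UMI of Chat, the enzyme that makes acetylcholine, Slc5a7_1 was at 1081 CPM against 112 in other cells, a ratio of 9.64 (7.73 to 11.9). Slc5a7_4 had 0 UMIs there, which so few cells cannot tell from its level elsewhere (ratio interval 0 to 1.98). In 311 Vacht-holding cells Slc5a7_1 was at 385 against 110 (ratio 3.51, 3.08 to 4.00, higher in 5 of 5 libraries), and in 77 Th-holding cells at 781 against 111 (ratio 7.02, 5.85 to 8.36). It was also higher in 135 Slc18a2-holding cells (ratio 3.0, 2.42 to 3.68). In 142 Tph-holding cells the ratio was 1.11 (0.80 to 1.5), and in 88 Sert-holding cells it was 0.63 (0.35 to 1.04). In the 46 cells with both Tph and Sert, Slc5a7_1 was at 26.3 CPM against 114 (ratio 0.23, 0.05 to 0.67), from 3 UMIs. Slc5a7_1, unlike the name as a whole, thus had a higher level in cells holding Chat, Vacht, Th or Slc18a2. Of its 4412 UMIs, 247 were in the Vacht-holding, 130 in the Th-holding and 89 in the Chat-holding cells. These groups can share cells, and most UMIs of the copy lay outside them. With the serotonin genes the intervals ended at 1.5 (Tph) and 1.04 (Sert). Cells holding these genes were deeper than the rest (medians of 1656 to 2143 UMIs against 1139 to 1143), and the part of depth in these ratios was not tested. The Chat-holding cells were too few for a value in more than 1 library, with 22 of the 35 at 60 hpf.

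**Figure D5:**
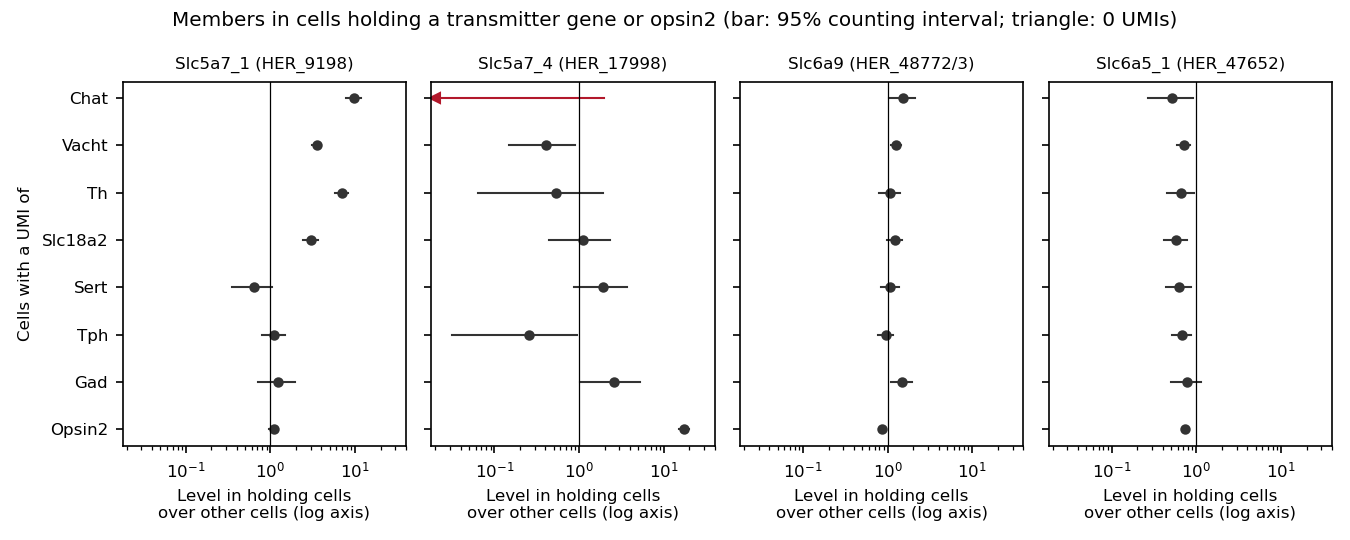
Ratio of the level of 4 members in cells with a UMI of a transmitter gene or opsin2 (rows) to the level in all other cells (log axis), pooled over libraries with 95% counting intervals; the triangle marks 0 UMIs. Slc5a7_1 lies right of 1 for Chat (9.64), Vacht (3.51), Th (7.02) and Slc18a2 (3.0), whereas Slc5a7_4 lies far right of 1 for Opsin2 (17.3).

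The noradrenaline-carrier names split in a similar way. Slc6a2 HER_44640.t1 had 16.3, 10.4, 24.8, 14.1 and 11.7 normalized UMIs by age, with no trend larger than its counting error (ratio 0.72, 0.36 to 1.45). Its 75 holding cells had higher mif4 (3.22), pks1 (3.11), hox11/13c (2.84) and opsin2 (2.41), in 5 of 5 libraries, beside 1.48% of all features called. The most similar gene was Maoa_2 (3.74), named for an enzyme that breaks down monoamines, and Ugt8_2, Npffr2L_4 and Hypp_1597 were among the next. In the pigment set it was at 17.0 CPM and in other cells at 0.94 (ratio 18, 11.2 to 29.1), and the set held 55.8% of its UMIs. By age the pigment set had 27.2, 30.1, 27.3, 14.6 and 5.56 CPM, from 15, 8, 10, 4 and 6 UMIs. The level was lowest in the 60 hpf library, where Slc5a7_4 was highest in the same cells, and the few UMIs allow no finer order. In cells holding Th, Vacht or Chat, HER_44640.t1 had 0 UMIs (in the Vacht-holding cells, a ratio interval of 0 to 2.91).

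Other Slc6a2 copies had few UMIs, some of them in cells with transmitter genes. Slc6a2 HER_13.t1 had 50 UMIs, and its holding cells had higher otp (4.55) and dbh (3.57) in the 2 libraries with enough cells, too few for a call. Of its 50 UMIs, 3 were in Th-holding cells (ratio 14.8, 2.94 to 45.8, higher in 1 of 2 libraries). In Vacht-holding cells it had 5 (higher in 3 of 5 libraries), and 1 was in a Chat-holding cell. Slc6a2_1 HER_16.t1 and HER_17.t1, named here after their values were seen, had 24 and 19 UMIs in all. Of the 24 UMIs of HER_16.t1, 8 were in 5 of the 77 Th-holding cells (ratio 116, 42.8 to 286, higher in 1 of 2 libraries). In 8 of the 311 Vacht-holding cells it had 11 UMIs (ratio 50.1, 20.3 to 121, higher in 3 of 5 libraries). Of the 19 UMIs of HER_17.t1, 4 were in the Th-holding cells (higher in 2 of 2 libraries) and 5 in the Vacht-holding cells (higher in 4 of 5). Since these cells overlap, the counts are not additive. No share over all features stands beside these ratios, so they are a description only.

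The GABA-carrier names were in other cells again. The 1184 cells holding Slc6a13 HER_18089.t1 had higher onecut (1.56, in 5 of 5 libraries), the transcription factor gene of the ciliary band, the only marker called (beside 0.870% of features). FbsL_2 (2.11), B4galt5_1, Abox, Hypp_139 and Sp8 (1.97) had the most similar patterns. In the ciliary band set, in effect onecut-holding cells because the second marker, atub13, was in 20760 cells, the gene was at 129, 95.1, 76.3, 107 and 89.1 CPM by age, and in other cells at 15.2, 9.62, 14.4, 31.9 and 40.1. It was higher in the set in 5 of 5 libraries, and the level in other cells was higher in the last 2 libraries. The pooled ratio was 4.23 (3.81 to 4.69), with 0.484% of all features called in this set. The second copy, Slc6a13 HER_40403.t1, had no called marker, and its most similar genes were Egfiii (1.87) and Egfi (1.79), fibropellin-type genes of the outer embryonic layer.

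Both main glycine-carrier names, Slc6a9 and Slc6a5_1, were held by many cells, and those cells had less of the pigment marker mif4. Slc6a9 was held by 7114 cells, in which 8 markers were called, beside 0.351% of all features. They were b4galt6-3 (1.44), msp130r2 (1.27), sm37 (1.20), acsc (1.19), giant (1.16), neurod (1.15), hesa and smadip. The 4 markers b4galt6-3, acsc, giant and smadip are on the study's list for putative rudiment ectoderm, and msp130r2 and sm37 are on the skeletal list. In the putative rudiment ectoderm set, Slc6a9 had a mean log2 ratio of 0.93 and was not called. In 67 cells with at least 2 skeletal markers Slc6a9 was at 1055 CPM against 280 in other cells (ratio 3.77, 3.24 to 4.35), a set with 10 cells in only 2 libraries and therefore without a call. Mif4 was at 398 CPM in cells with Slc6a9 and 1138 in other cells, lower in 5 of 5 libraries. Slc6a5_1 had no called marker. Its holding cells had 194 CPM of mif4 against 1239 elsewhere (mean log2 -2.70) and lower hox11/13c (-2.01), both in 5 of 5 libraries. Egfiii (1.27) and Egfi (1.12) were the most similar genes. Slc6a5-3 was held by 249 cells with higher b4galt6-3 (1.59), prdm14-1 (1.51) and wnt3 (1.06), beside 0.856% of features. For mif4 the cells with Slc6a5-3 had a mean log2 of 0.75, above 0 in 4 of 5 libraries.

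In the pigment set itself, the abundant members were at a higher level at 60 than at 36 hpf. Slc6a5_1 was at 39.9, 26.3, 84.6, 116 and 206 CPM by age in the set and at 330, 247, 283, 321 and 290 in other cells. Slc5a7_1 was at 12.7, 22.6, 62.7, 94.6 and 116 in the set and at 106, 98.5, 107, 136 and 136 in other cells. In each library both were lower in the set than outside it, by less at 60 than at 36 hpf. The level in the set thus moved toward that in other cells, and the part of free RNA or of droplets with more than 1 cell in this was not tested. For Slc6a9 the values in the set were 114, 135, 199, 153 and 226.

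Slc5a11_2, 1 of the inositol-carrier names, went with skeletal markers, and the taurine-carrier names are given beside it. The 61 cells holding Slc5a11_2 had higher msp130r2 (4.67), sm37 (4.15), alx1 (3.36) and sm50 (2.92), in 3 of 3 libraries, together with hesa, giant and msx (beside 1.38% of features). Alx1 is the transcription factor gene that directs skeletogenic cells in sea urchins. In the 67 cells of the skeletal set Slc5a11_2 was at 118 CPM against 1.40 (ratio 84.4, 48.4 to 142), from 21 of its 75 UMIs, of which 14 were in the 42 hpf library. In the 72 cells of the right coelomic pouch set it was at 49.2 against 1.67 (ratio 29.5, 14.0 to 56.4), from 11 UMIs. Cells of these sets were deep (medians of 2453 and 3096 UMIs, with other cells at 1143). With the 60 hpf library left out, too few libraries remained for a call. The cells holding Slc6a6 HER_45216.t1 had higher msx (1.36, called, beside 0.477% of features), and alx1 (1.73) and msp130r2 (1.66) in 4 of 5 libraries. In the skeletal set it was at 95.9 against 5.25 (ratio 18.3, 10.4 to 30.0), with 13 of 17 UMIs at 60 hpf. In the right coelomic pouch set it was at 22.3 against 5.57 (ratio 4.01, 1.29 to 9.51), from 5 UMIs. The most similar gene was Grm6L (2.85), named for a metabotropic glutamate receptor. Slc6a6 HER_44924.t1 went with alx1 (1.66) and acsc (1.06), beside 0.0351% of features, and Slc5a12_5 HER_21667.t1 with alx1 (1.17), beside 0.0140%. None of these 3 calls was made in cells with under 3000 UMIs, and that of acsc was also lost when UMIs were pooled over libraries. In all cells the level of alx1 was 66.7 against 10.0 and 42.9 against 9.50 CPM.

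Carriers named for sugar, lactate and iodide were found with markers of blastocoelar cells, the immune-type cells of the larval cavity. Slc5a9_7 (HER_1462.t1) had 48.0, 60.3, 32.6, 43.7 and 69.1 normalized UMIs by age, and its 242 holding cells had higher astacin4 (3.59), immune effector copies (2.53) and scl (1.99), in 5 of 5 libraries (beside 1.16% of features). Astacin4 is a metalloprotease gene, the immune effector copies are 5 features of 1 symbol (HER_22243.t1 among them) from a gene family that sea urchin immune cells use against microbes, and scl is a blood-type transcription factor gene. The same 3 markers were called for Slc5a12L1 HER_4272.t1, at 4.49, 4.14 and 2.90 in 4 of 4 libraries (beside 2.37%), astacin4 being at 5334 CPM in its 93 holding cells and 251 elsewhere. For Slc5a5_1, the immune effector copies (1.87) and astacin4 (1.79) were called (beside 0.379%). Gat (3.83 and 4.75) and A2col (3.62 and 4.55) were among the most similar genes of Slc5a9_7 and HER_4272.t1, and collagen names led the list for Slc5a5_1, with A2col (2.82), 6Afcol (2.74) and Colp4a_2 (2.46).

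In the blastocoelar set of 1090 cells (4.08% of all, median 1641 UMIs against 1130) all 3 members were called, beside 2.91% of features. With 1 marker per cell the calls of Slc5a9_7 and Slc5a5_1 were lost, and with 3 markers that of Slc5a5_1. Slc5a12L1 HER_4272.t1 was at 80.9, 58.8, 30.9, 37.8 and 16.4 CPM by age, and at 0.38 to 1.85 in other cells. Pooled, the levels were 31.2 and 0.99 (ratio 31.5, 20.8 to 48.4), and the set held 66.4% of its UMIs. Slc5a9_7 was at 56.0, 74.8, 41.2, 47.2 and 32.1 in the set and at 3.08 to 6.39 outside it (pooled ratio 8.37, 6.48 to 10.7). Slc5a5_1 was at 49.8, 37.4, 61.8, 14.2 and 8.22 in the set (pooled ratio 4.08, 2.90 to 5.62). The level of each was lowest in the 60 hpf library, while the share of cells in the set was 1.77% at 36 hpf and 6.78% at 60 hpf. The other Slc5a12L1 copies with at least 50 UMIs, HER_4260.t1, HER_4266.t1, HER_1283.t1 and HER_1284.t1, had no called marker. The last 2 had only 79 and 65 UMIs, and the cells of HER_4272.t1 were not compared directly with those of the other copies.

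Slc5a12_2 HER_18000.t1 went with the animal pole marker hbn. Its 1388 holding cells had more of it (1.10, 597 against 286 CPM), the only marker called. Hbn is a homeobox gene of the anterior neuroectoderm, and 0.0351% of all features were called in the same cells. DmrtA2 (1.18) was the most similar gene. In the animal pole set of 4410 cells it was at 72.2, 68.8, 97.0, 144 and 61.7 CPM by age and at 21.2, 25.2, 32.8, 52.8 and 36.6 in other cells (pooled ratio 2.39, 2.15 to 2.66, beside 0.379% of features called). It was highest at 56 hpf in both kinds of cells. In the pigment set it was at 12.2 against 41.8, lower in 5 of 5 libraries. The copy with the next lower ID, HER_17999.t1, was instead held by 211 cells with higher b4galt6-3 (1.92), wnt3 (1.61), hesa (1.40) and egfi (1.15), beside 1.15% of features, and HER_18001.t1 had no called marker.

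Another 4 members, named for sugar and inositol carriers, had b4galt6-3, a putative rudiment ectoderm marker, among their called markers. No other marker of that list was called for them, and of the 4 only HER_6461.t1 was called in that set. Hesa is on the gut and left coelomic pouch list, tbx2/3 on the larval ectoderm list. Slc5a9L HER_6461.t1 (367 holding cells) went with b4galt6-3 (2.18), hesa (1.89) and tbx2/3 (1.38), beside 1.11% of features. In the putative rudiment ectoderm set of 2252 cells it was at 21.6, 27.5, 26.1, 44.9 and 35.9 CPM by age and at 3.36, 7.86, 9.77, 12.8 and 7.44 in other cells (pooled ratio 3.73, 3.05 to 4.55, beside 1.20%). Slc5a9_8 (HER_34999.t1) went with b4galt6-3 (1.77), wnt3 (1.24) and hesa (1.15), beside 0.793%, and Slc5a3_1 (HER_27273.t1), named for the main myo-inositol carrier, with b4galt6-3 (1.28), beside 0.330%. The 248 cells holding Slc5a9_5 (HER_49335.t1) had higher prdm14-1 (1.65), wnt3 (1.36), b4galt6-3 (1.26), msx (1.13) and egfi (1.09), beside 0.927%. In the left ectoderm set of 950 cells it was at 29.8, 24.1, 24.6, 78.7 and 12.4 CPM by age and at 4.49 to 8.31 outside it (pooled ratio 4.79, 3.57 to 6.35, beside 0.730%). Cells of this set and of the putative rudiment set were deep (medians of 2424 and 2339.5 UMIs), with other cells at 1118.5 and 1081. Slc5a9L HER_16461.t1, with 105 UMIs, went with pax6-1 (1.29), beside 0.147%.

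Of the remaining members with at least 50 UMIs, Slc5a6 and Slc5a9L HER_16467.t1 were broad. No feature of 14247 was called in the cells that held either of them, or in those that held Slc5a12L1 HER_4260.t1. Slc5a6_2 (HER_39560.t1), Slc5a9_9 HER_6454.t1 and HER_49570.t1, Slc5a9L HER_16464.t1, Slc5a8 HER_5315.t1, Slc5a9_2, Slc5a3 HER_35748.t1 and Slc5a12_5 HER_21666.t1 had 62 to 144 UMIs and no called marker. Slc5a12 (HER_4657.t1_HER_4659.t1) and Slc5a8 HER_5384.t1 had 10 holding cells in only 2 libraries. In the neural set, in effect cells with secrtag or syt4 because calml1 was in 26432 cells, no member was called (beside 3.73% of features), and Slc5a7_1 was at 164 CPM against 109 (ratio 1.5, 1.36 to 1.64, higher in 5 of 5 libraries).

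How often 2 members were held by 1 cell was also compared. Over the 231 pairs of the 22 members with at least 200 UMIs, in thinned cells, the share of cells with the second member among cells with the first was 0.93 times that among the other cells at the median. In 12 pairs it was at least 2 times as large on 5 or more cells, and in 75 it was at most 0.5 times as large. With at most a few cells in most pairs, and no share over other pairs of features beside them, these ratios are a description only.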

How the data were processed

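The deposited files were 1 matrix of UMI counts per library, made by the authors with Cell Ranger 3.1.0 from 3' tag libraries; Seurat 4.0 is also named in the submitters' processing notes. The genome build used for mapping is not given in the sources used here (for its functional annotation the study took gene models from an earlier genome publication of the species), and no genome positions or sequences were used. The counts were raw UMIs in whole numbers, and no columns of other samples were present.

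Cells with over 200 and under 4000 genes and under 10000 UMIs were kept, as in the study, leaving 26740 of 26781 barcodes. Sums of UMIs over the kept cells of each library were scaled by median-of-ratios size factors (DESeq2 1.42.0), with a filter of a mean of 10. TMM factors came from edgeR 4.0.16. Python 3.11.15, NumPy 2.4.6, SciPy 1.17.1, pandas 2.3.3 and R 4.3.3 were used. With 1 library per age no p-value was computed. Intervals are exact Poisson for counts, Clopper-Pearson for shares and conditional binomial for ratios. Cells were thinned to 500 UMIs with a fixed seed, which left out 520 shallower cells, 509 of them at 56 hpf and 11 at 36 hpf. No doublets were removed, cells with under 3000 UMIs being an alternative. All scripts were tested on simulated data.

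All members with at least 50 UMIs were described, apart from a few results that are not reported here, in text or figures. For each, the most similar genes were the 5 features with a symbol and the largest mean log2 ratio among those found in at least 10% of holding cells, the member's own symbol left out. Pathway genes were those of a list of 29 symbols. Of 76 marker symbols, 73 were matched and 72 had a UMI. Members, markers and gene lists were chosen with earlier results of these data known. Depth and other alternatives are in the closing section.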

Additional observations from a re-analysis of the deposited data

How the results depend on the processing

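The count of members at least 2-fold higher at 60 than at 36 hpf was 7, and between 5 and 8 with all barcodes, cells of over 500 genes, CPM, TMM factors, a pseudocount of 10, equal weight for each cell, 42 hpf as the base, 56 hpf in place of 60, or copies of a symbol summed. It was 17 without the filter on low counts, where 4 were lower. The count of members 2-fold lower, 2 at first, was 1 with a pseudocount of 10, 1 with equal weight for each cell, 1 with copies summed and 0 at 56 against 36 hpf. At 56 against 36 hpf Slc6a6 HER_44924.t1 turned, at a log2 ratio of 0.14. Over single members, 16 of 42 log2 ratios moved by more than their counting interval against 42 hpf, and 18 at 56 against 36 hpf. Without thinning, 5 members were in a smaller share of cells at 60 hpf, in place of 1.

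For the marker profiles, 20 members and 62 pairs became 5 members and 24 pairs when a cell needed 2 UMIs of the member, and 35 members and 162 pairs when UMIs were pooled over libraries, of which 13 and 58 pairs were shared with the first 62. Leaving out the 60 hpf library gave 63 pairs (55 shared) and leaving out the 56 hpf library, an alternative chosen after seeing the data, 63 pairs (53 shared). A pseudocount of 1 CPM gave 69 pairs (62 shared). Cells with under 3000 UMIs gave 68 (55 shared), the 7 lost being alx1 and acsc for Slc6a6 HER_44924.t1, alx1 for Slc5a12_5 HER_21667.t1, wnt3 for Slc6a5-3 and Slc5a12_2 HER_17999.t1, egfi for Slc5a9_5 and mif4 for Slc5a7_5. For the marker sets, 9 pairs were kept without either library. With 1 marker per cell 12 pairs were called and with 3 markers 9, of which 5 were shared in each case. Slc5a9_7 and Slc6a2 HER_44640.t1 were lost with 1 marker, Slc6a13 HER_18089.t1 and Slc5a9L HER_6461.t1 with 3, and Slc5a5_1 and Slc5a9_5 with either. Slc5a7_4 in the pigment set, Slc5a12L1 HER_4272.t1 in the blastocoelar set and Slc5a12_2 HER_18000.t1 in the animal pole set were called under each of these. No paired analysis was possible because there was 1 library per age and the labels give no replicate numbers. Members with few UMIs, and sets of under 100 cells, are limited by depth.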
